A study of Mus musculus with 8 samples.

Results

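A set of 9 genes of fatty acid use was followed in the pancreas of Bach2KO and Bach2WT mice: the receptor gene Ppara, its coactivator gene Ppargc1a, and 7 genes that PPAR receptors or fasting are known to switch on in other organs, which were Cpt1a, Pdk4, Angptl4, Plin2, Plin5, Acot1 and Acot2. They were chosen by symbol, with earlier results of these data known, as were the lists of genes used below. All 9 of them were among the 21434 genes of the deposited table and among the 12820 genes whose counts were high enough to be tested. RNA had been taken from the pancreas of 8 untreated mice, aged 18 weeks and fed control chow, and sequenced as 1 library of polyadenylated RNA per mouse. Bach2KO mice were homozygous for the allele of the strain C57BL/6N-Bach2tm1b(EUCOMM)Wtsi/leg, in which part of Bach2 has been removed by Cre in the whole body, so that cells of every organ carried the deletion. Bach2WT mice were wild type animals of that strain. Each genotype was represented by 4 mice, females being numbers 1 and 2 and males numbers 3 and 4. The mice were bred in colonies at more than 1 site with free access to food, and neither the site, nor the hour, nor the time since the last meal is given for a library in the sources used here.

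PPARα, the product of Ppara, is a nuclear receptor that is activated by fatty acids. It pairs with a retinoid X receptor, binds direct repeats of the hexamer AGGTCA, and with the coactivator PGC-1α (Ppargc1a) raises the genes that import, oxidize and store fatty acids when food is withdrawn, best known from liver, heart and muscle. Several of these genes, Pdk4 and Angptl4 among them, also respond to glucocorticoids and to FoxO factors, which are active in the same state. The pancreas consists mostly of acinar cells, whose messenger RNA is dominated by digestive enzymes.

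The libraries held 72299745 to 172029360 counts on genes, of which 85.1% to 88.6% came from 32 genes of digestive enzymes. Markers of acinar cells summed to 370961 to 521801 CPM (counts relative to the library total on the usual CPM scale, adjusted with edgeR's TMM factors unless stated). Bach2 itself had 3 to 16 counts in Bach2KO and 4 to 31 counts in Bach2WT libraries, a level at which the labels could not be checked by a count over the whole gene. Bach2KO 3 stood apart from the other libraries on the first principal component (101.8 against -34.8 to 7.22, 23.3% of the variance). For the genes described here it was another library, Bach2KO 1, that stood apart, and values without it are given beside the results that it moved. Where a library held 0 counts of a gene, the limit that 3 counts of its total allow was 0.0174 to 0.0415 CPM before scaling. Every pair of libraries differed beyond sampling noise, with a chi-square of at least 78.8 per degree of freedom over genes.

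The stretch before the start of a gene is one place where its regulators can bind, and sequence elsewhere was not searched. It is shown for 4 genes on which the results turn. Pdk4 and Acot1 had the smallest p-values of the 9 between genotypes in the fit without covariates. Acot2 is the neighbour and close relative of Acot1, and Cpt1a separated the sexes. Each line gives the 250 bases before the transcription start of RefSeq in GRCm38.p6, read along the strand of the gene, with AGGTCA or its reverse complement TGACCT in capitals.
Pdk4 (chr6:5496279-5496528, minus strand): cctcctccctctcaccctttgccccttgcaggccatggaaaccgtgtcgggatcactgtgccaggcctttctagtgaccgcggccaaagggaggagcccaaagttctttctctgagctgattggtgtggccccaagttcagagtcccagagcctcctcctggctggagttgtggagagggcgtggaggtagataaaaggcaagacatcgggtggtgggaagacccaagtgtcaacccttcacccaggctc
Acot1 (chr12:84009252-84009501, plus strand): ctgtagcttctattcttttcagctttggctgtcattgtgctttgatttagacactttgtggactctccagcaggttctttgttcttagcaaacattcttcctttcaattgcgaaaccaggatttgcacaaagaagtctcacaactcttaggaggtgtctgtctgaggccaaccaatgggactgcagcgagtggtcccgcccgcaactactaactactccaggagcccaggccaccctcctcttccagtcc
Acot2 (chr12:83987611-83987860, plus strand): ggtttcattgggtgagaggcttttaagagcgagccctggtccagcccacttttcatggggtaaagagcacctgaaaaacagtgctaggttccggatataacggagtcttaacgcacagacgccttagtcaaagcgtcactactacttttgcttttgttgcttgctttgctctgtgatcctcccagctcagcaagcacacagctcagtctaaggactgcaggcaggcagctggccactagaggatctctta
Cpt1a (chr19:3323051-3323300, plus strand): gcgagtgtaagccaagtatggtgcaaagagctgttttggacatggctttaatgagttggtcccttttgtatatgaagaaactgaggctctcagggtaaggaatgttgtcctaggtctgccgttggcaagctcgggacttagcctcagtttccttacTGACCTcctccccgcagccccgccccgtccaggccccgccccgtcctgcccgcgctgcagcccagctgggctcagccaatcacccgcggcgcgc

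RefSeq windows of this length were found for 8 of the 9 genes. The single hexamer AGGTCA occurred on either strand in 14% of all 32851 windows, and among the 9 genes it was read before Cpt1a, Plin2 and one of the starts of Plin5. In the window of Cpt1a it lay 94 to 89 bases before the start. The hexamer repeated in the same direction after 1 free base was in 0.0335% of all windows and in none of these. The sequences GNACA and TGTNC with 3 bases between them, a form of the palindrome that the glucocorticoid receptor binds, were in 0.387% of all windows and in none of these.

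Per length of transcript the 9 genes were weakly expressed. The authors' FPKM values put Cpt1a first with a mean of 0.707 ± 0.303 FPKM (SD, n = 8), above 82.9% of the genes in the table. Plin2 followed with 0.469 ± 0.196 FPKM, and Cpt1a was above it in 6 of 8 libraries. Pdk4 had the next mean, 0.332 ± 0.886 FPKM, but a median of 0.0152 FPKM, and was above Acot1 in only 2 of 8 libraries. Acot1 (0.120 FPKM), Acot2 (0.114 FPKM) and Angptl4 (0.103 FPKM) had means close to each other, and none of them was above the next in more than 5 of 8 libraries. Plin5 had a mean of 0.0613 FPKM and Ppara one of 0.0601 FPKM, each being the higher in 4 of 8 libraries. Ppargc1a was last with 0.0190 ± 0.0176 FPKM, below Ppara in 6 of 8 libraries. By the median over libraries, Cpt1a and Plin2 again led, while Pdk4 was last.

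Ppara (ENSMUSG00000022383, GRCm39 chromosome 15, 85619184 to 85687020) had 0.296, 0.193, 0 and 0.440 CPM in Bach2KO 1 to 4 and 0.311, 0, 0.432 and 0.216 CPM in Bach2WT 1 to 4. One library of each genotype held no count of it, the ranges overlapped throughout, and the log2 fold change between genotypes was -0.02 ± 1.12 (SE). Ppargc1a (ENSMUSG00000029167, chromosome 5, 51611592 to 51725068) had 0.340, 0.193, 0 and 0.135 CPM in Bach2KO and 0.233, 0.107, 0.0278 and 0 CPM in Bach2WT. The higher values belonged to females in both genotypes, except that the Bach2KO 4 male was above the Bach2WT 2 female, and the genotypes overlapped. The log2 fold change was 0.87 ± 1.18, and it was 0.26 without Bach2KO 1 and 1.83 without Bach2WT 1. In bulk tissue such a level does not tell fewer cells of an expressing type from less RNA per cell. The other receptors of the family were Ppard, with 4.47 to 10.1 CPM in Bach2KO and 7.90 to 9.57 CPM in Bach2WT, and Pparg, with 0.284 to 0.648 and 0.115 to 0.611 CPM.

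Cpt1a (ENSMUSG00000024900, chromosome 19, 3372334 to 3435733), the gate through which long-chain fatty acids enter mitochondria, did not separate the genotypes and did separate the sexes. Its level was 8.38, 6.52, 2.54 and 4.10 CPM in Bach2KO 1 to 4 and 8.35, 7.59, 3.52 and 3.35 CPM in Bach2WT 1 to 4. All 4 females lay above all 4 males, while the genotypes covered nearly the same range. Females averaged 7.71 ± 0.872 CPM and males 3.38 ± 0.647 CPM (SD, n = 4 each). In edgeR's quasi-likelihood test with genotype as a covariate the log2 fold change of females against males was 1.19 ± 0.19, with an adjusted p of 0.0983, just outside the threshold of 0.05. DESeq2 gave an adjusted p of 0.000148 for the same contrast, and edgeR gave 2.73e-05 when genes with low counts were kept in the fit. Over the fits that left out 1 mouse in turn, edgeR's adjusted p ranged from 0.0691 to 0.722. Between genotypes the log2 fold change was -0.08 ± 0.37 (adjusted p = 0.982 in edgeR), and the sex difference itself differed between genotypes by -0.05 ± 0.39 on the log2 scale. The muscle form Cpt1b had at most 4 counts in any library, and the brain form Cpt1c had 0.115 to 0.409 CPM.

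Pdk4 (ENSMUSG00000019577, chromosome 6, 5483351 to 5496309) encodes the kinase that shuts pyruvate dehydrogenase when fat is burned. It had 1512, 12, 2 and 16 counts in Bach2KO 1 to 4 and 0, 0, 0 and 16 counts in Bach2WT 1 to 4, or 9.34, 0.145, 0.0264 and 0.0829 CPM against 0, 0, 0 and 0.230 CPM. Bach2KO 1 thus held 97.0% of all counts of the gene and was 40.5 times the next library, which was a Bach2WT male. The 1512 counts were 11.0 CPM before TMM scaling, with a 95% Wilson interval of 10.4 to 11.6 that covers counting error only. The fitted log2 fold change between genotypes was 5.75 ± 1.82 with an unadjusted p of 0.00748 and an adjusted p of 0.531 in edgeR. Without Bach2KO 1 the gene no longer passed the filter, and the remaining Bach2KO mice averaged 0.0847 ± 0.0593 CPM (n = 3) against 0.0576 ± 0.115 CPM (n = 4) in Bach2WT. Without Bach2WT 4, the only Bach2WT library with counts, the fitted log2 fold change was 11.25, which is no bound since that group was then at 0. The related kinases Pdk1, Pdk2 and Pdk3 showed no such library: Pdk2, the most abundant of them, ranged from 11.4 to 15.7 CPM over all 8.

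Angptl4 (ENSMUSG00000002289, chromosome 17, 33992724 to 34000804) encodes a secreted inhibitor of lipoprotein lipase. Its level was 2.25, 0.0724, 0.0528 and 0.166 CPM in Bach2KO 1 to 4 and 0.233, 0.168, 0.0139 and 0.0864 CPM in Bach2WT 1 to 4. Bach2KO 1 was 9.64 times the next library, and the other 3 Bach2KO mice lay within the range of Bach2WT. The log2 fold change was 2.36 ± 1.12 (adjusted p = 0.670 in edgeR) with all libraries and turned to -0.33 ± 1.07 without Bach2KO 1. The log2 fold change of females against males was 2.82 ± 0.95 (unadjusted p = 0.0113, adjusted p = 0.890 in edgeR), and 1.08 ± 1.29 without Bach2KO 1. Lpl, the enzyme it inhibits, was at 6.93 to 11.5 CPM in Bach2KO and 8.40 to 10.3 CPM in Bach2WT.

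Of the lipid droplet coat genes, Plin2 (ENSMUSG00000028494, chromosome 4, 86566623 to 86588297), which is found on droplets of most cells, had 1.24, 3.24, 0.898 and 1.35 CPM in Bach2KO and 1.74, 1.97, 1.73 and 1.31 CPM in Bach2WT. The highest and the lowest value were both from Bach2KO mice, and Bach2KO 1 was not raised. The log2 fold change was -0.01 ± 0.36. Plin5 (ENSMUSG00000011305, chromosome 17, 56418601 to 56424596), which ties droplets to mitochondria in oxidative tissue, had 0.402, 0.217, 0.198 and 0.0673 CPM in Bach2KO and 0.0222, 0.152, 0 and 0 CPM in Bach2WT. Its 3 highest values were Bach2KO, and only Bach2KO 4 and Bach2WT 2 overlapped. The log2 fold change was 2.25 ± 1.19 (adjusted p = 0.721 in edgeR), 1.78 ± 1.36 without Bach2KO 1, and 4.78 ± 1.37 (adjusted p = 0.730 in edgeR) without Bach2WT 2. These values rest on 13 to 65 counts per Bach2KO library and 0 to 20 per Bach2WT library. Plin5 lies on the same strand as Lrg1, 2082 bases away, and Plin4, 1798 bases away, without overlapping either. Plin4, another droplet coat gene, was at 6.62 CPM in Bach2KO 1 and at most 1.61 CPM elsewhere.

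The acyl-CoA thioesterases Acot1 (ENSMUSG00000072949, chromosome 12, 84056264 to 84065145) and Acot2 (ENSMUSG00000021226, chromosome 12, 84034635 to 84040647) lie next to each other and release free fatty acids from coenzyme A in the cytosol and in mitochondria, respectively. Acot1 had 2.43, 0.592, 0.383 and 0.207 CPM in Bach2KO 1 to 4 and 0.0222, 0.0610, 0 and 0.230 CPM in Bach2WT 1 to 4. Bach2KO 1 was 4.11 times the next library, and the other Bach2KO mice lay above Bach2WT save for an overlap of Bach2KO 4 with Bach2WT 4. The log2 fold change was 3.65 ± 1.04 with an unadjusted p of 0.00378 and an adjusted p of 0.513 in edgeR. Without Bach2KO 1 it was 2.38 ± 1.11 (adjusted p = 0.890 in edgeR), with 0.394 ± 0.192 CPM (n = 3) in Bach2KO against 0.0784 ± 0.104 CPM (n = 4) in Bach2WT. Acot2 had 1.03, 0.193, 0.251 and 0.0777 CPM in Bach2KO and 0.377, 0.00762, 0.111 and 0.0288 CPM in Bach2WT. Bach2KO 1 was again the highest, 2.73 times Bach2WT 1, and the rest overlapped (log2 fold change 1.57 ± 1.03, 0.39 ± 1.14 without Bach2KO 1 and 2.92 ± 1.11 without Bach2WT 1). The longest transcripts of the pair align over 882 bases with 94.6% identity, and 8.12% of the 150-base windows of Acot1 occur unchanged in Acot2. How reads from such stretches were assigned is not given in the sources used here, so the split between both genes is uncertain.

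**Figure D1:**
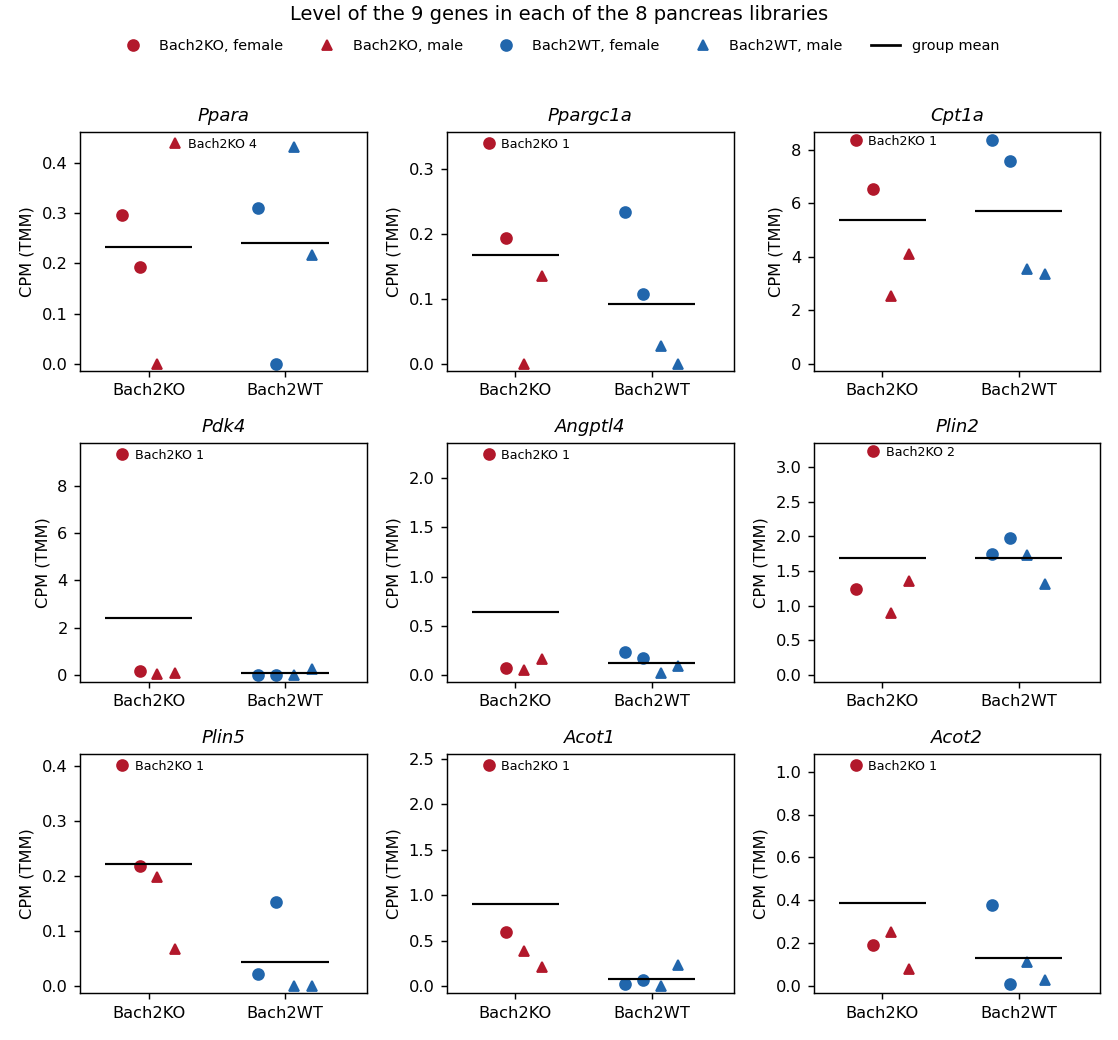
Level of each of the 9 genes in every library, in CPM scaled with TMM factors on a linear axis of its own for each gene. Circles are females, triangles males, red Bach2KO and blue Bach2WT, black lines are group means (n = 4), and the highest library is named: it was Bach2KO 1 for 7 of the 9 genes, by 40.5 times over the next for Pdk4 but level with Bach2WT 1 for Cpt1a (8.38 against 8.35 CPM).

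Over the 9 genes, 0 differed between genotypes at an adjusted p under 0.05 in edgeR, where 0.0078% of all genes tested did. At an unadjusted p under 0.05, 2 of 9 (Pdk4 and Acot1) were higher in Bach2KO, against 3.9% of all genes tested, and 0 were lower, against 3.56%. Without Bach2KO 1 the counts were 0 higher and 0 lower of the 8 genes fitted, against 3.04% and 2.41% of all genes. These fits held no covariate, and which genes were named depended on that. With sex as covariate and all libraries, edgeR's unadjusted p was 0.0125 for Acot1, 0.0243 for Plin5, 0.0490 for Angptl4 and 0.0957 for Pdk4. Their adjusted p lay between 0.517 and 0.717. DESeq2 gave no p-value for Pdk4 and Angptl4, so these were not tested by it, and it called 0 of the others. How many of all genes DESeq2 called is given with the alternatives below. For 0 of the 9 genes were all 4 values of a genotype clear of the other 4, whereas 2.57% of all genes were higher and 1.92% lower in Bach2KO without overlap. The fold change was above 0 for 6 of the 9, with a median of 1.57 on the log2 scale against 0.05 over all genes tested. Without Bach2KO 1 the median over the 8 genes that could be fitted was 0.18, against 0.01 over all genes. When genes with low counts were kept in the fit, Pdk4 (adjusted p = 0.0163) and Acot1 (adjusted p = 0.0290) passed the threshold in edgeR.

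**Figure D2:**
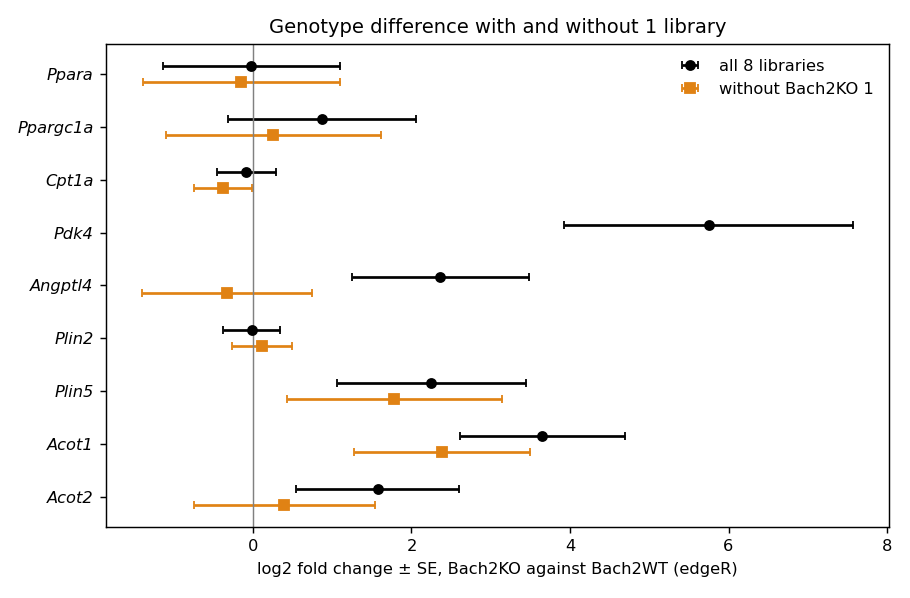
Log2 fold change of Bach2KO against Bach2WT for the 9 genes, with bars of 1 SE from edgeR, for all 8 libraries (black circles) and without Bach2KO 1 (orange squares). Without that library Pdk4 has no square, since it failed the filter, Angptl4 moves from 2.36 to -0.33, and Acot1 from 3.65 to 2.38.

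Bach2KO 1 held the highest value of 7 of the 9 genes, all but Plin2 and Ppara, against 18.8% of all genes tested. A level at least 4 times that of every other library was reached there by 27 genes, or 0.211% of those tested, and Pdk4, Angptl4 and Acot1 were 3 of the 27. In the other 7 libraries 0 to 8 genes did so, and 0 of them were among the 9. The list of 24 tested genes of the fasting and glucocorticoid response, which leaves out the 9 genes, had its highest value in Bach2KO 1 for 16 of 24. Of that list, Fkbp5 and Zbtb16, which glucocorticoids induce, Irs2, an insulin receptor substrate raised by fasting in liver, and the cell cycle inhibitor gene Cdkn1a were at least 4 times the next library; these 4 are named here after their values were seen.

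Fkbp5 was at 16.7 CPM in Bach2KO 1 and at 0.951 to 3.53 CPM in the others. Zbtb16 was at 3.36 CPM there and at 0 to 0.644 CPM elsewhere. Irs2 had 11.2 against 0.374 to 1.22 CPM, and Cdkn1a 32.2 against 1.27 to 6.17 CPM. These 4 genes of the fasting and glucocorticoid list were named for their level in Bach2KO 1. That they share this mouse with Pdk4, Angptl4 and Acot1 is therefore no separate support for a relation. Txnip and Ddit4, which had the smallest p-values of the list between genotypes, were instead highest in Bach2KO 3. Txnip, which limits glucose uptake, had 34.3, 10.4, 109 and 18.5 CPM in Bach2KO and 11.5, 6.96, 9.50 and 5.90 CPM in Bach2WT. Ddit4, an inhibitor of mTORC1 signalling, had 8.80, 3.73, 14.3 and 5.70 CPM in Bach2KO, each above the 0.965 to 3.24 CPM of Bach2WT. The adjusted p was 0.352 for both in edgeR, and 0.00761 for Ddit4 in DESeq2. When genes with low counts were kept, both passed in edgeR (adjusted p = 0.00112 for Txnip and 0.00461 for Ddit4). Without Bach2KO 3 the log2 fold change of Txnip was 1.29 in place of 2.34.

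**Figure D3:**
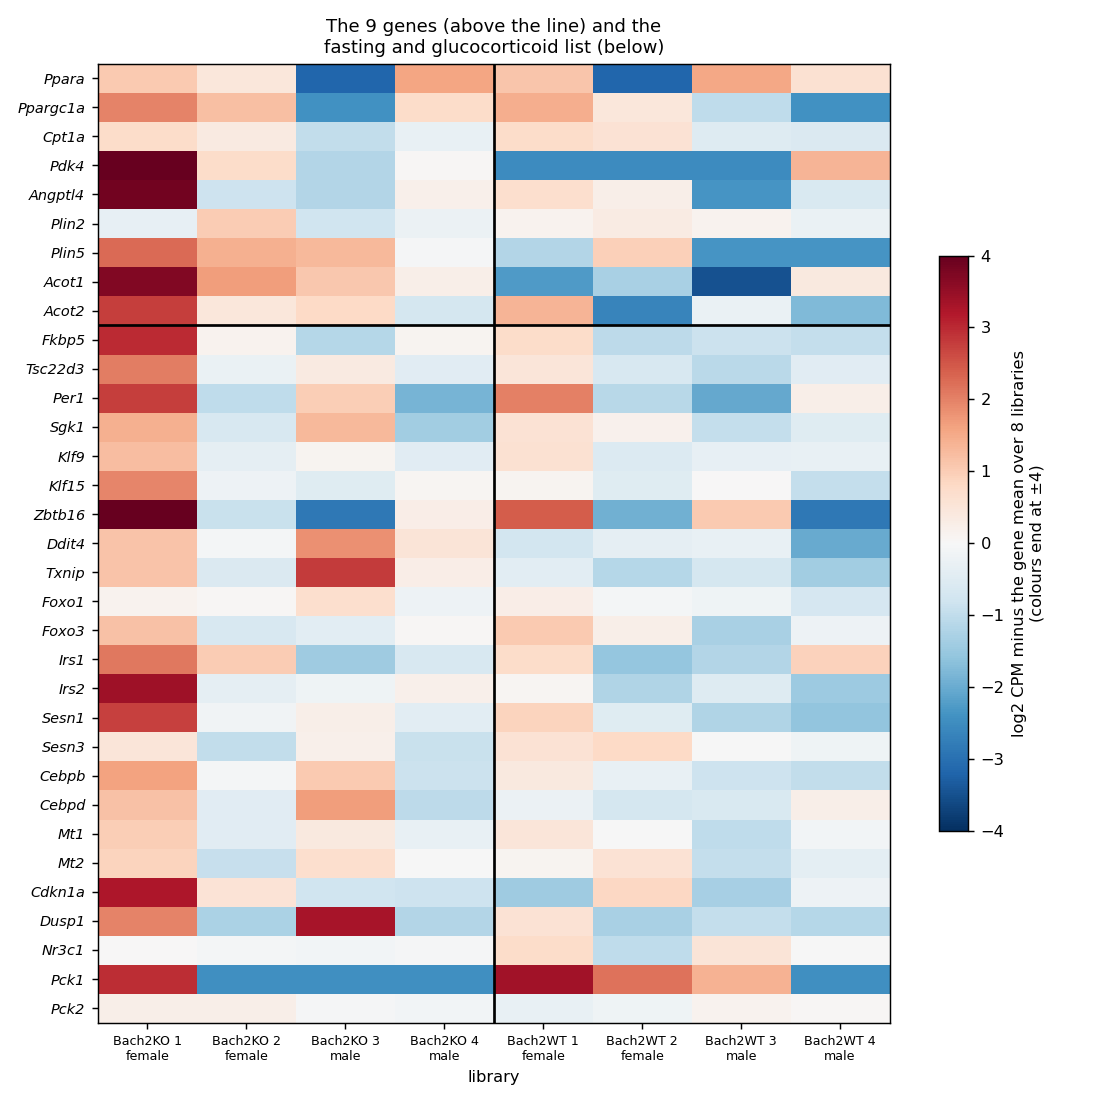
Log2 CPM minus the mean of the gene over the 8 libraries, for the 9 genes above the black line and the 24 tested genes of the fasting and glucocorticoid list below it. Columns are libraries, and the vertical line parts the genotypes: the column of Bach2KO 1 holds the highest value of 7 of the 9 and of 16 of the 24 genes.

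The wider pathway was followed with 12 lists of genes that leave out the 9. Because earlier results of these data were known when the 9 and the lists were chosen, the shares of all genes beside them are a description only. None of their genes differed between genotypes at an adjusted p under 0.05. At an unadjusted p under 0.05 the fasting and glucocorticoid list had 8 of 24 genes higher in Bach2KO and 0 lower, with a median log2 fold change of 0.92, where 3.9% of all genes tested were higher and 3.56% lower. Without Bach2KO 1 it had 3 higher, 1 lower and a median of 0.10, where the shares of all genes were 3.04% and 2.41%. For most of the other lists the counts were 0 or 1 in either direction, and the same shares of all genes apply. Of 21 genes of mitochondrial fatty acid oxidation 1 was higher and 0 lower (median -0.02), of 15 of peroxisomal oxidation 0 and 0 (median -0.22), and of 22 PPAR receptors, partners and coregulators 0 and 0 (median 0.04). Of 8 ketone body genes 1 was higher and 1 lower (median 0.36). Fatty acid uptake and activation had 1 higher and 1 lower of 13 (median 0.15), lipid droplets and lipolysis 1 and 3 of 16 (median 0.02), lipoprotein lipase and its regulators 1 and 1 of 7 (median -0.07), the other acyl-CoA thioesterases 0 and 0 of 7 (median -0.18), pyruvate dehydrogenase and its kinases and phosphatases 0 and 1 of 12 (median -0.12), and fatty acid and triglyceride synthesis 0 and 2 of 15 (median -0.11). The digestive enzymes had 1 higher and 12 lower of 32 (median -0.34).

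Of the genes with the smallest p-values on each list, several handle fatty acids directly. Plin1, the droplet coat of fat cells and also an adipocyte marker, had 0.0865, 0, 0 and 0 CPM in Bach2KO and 1.12, 0.800, 0.306 and 0.202 CPM in Bach2WT, without overlap (log2 fold change -4.57, adjusted p = 0.367 in edgeR). It passed in edgeR when genes with low counts were kept (adjusted p = 0.0211), and without Bach2KO 1, the only Bach2KO library with counts, the adjusted p was 0.0908. Dgat2, which makes triglyceride, had 0.898 to 1.07 CPM in Bach2KO and 1.02 to 3.48 CPM in Bach2WT (log2 fold change -1.17 ± 0.35). Fabp5, a carrier of fatty acids in the cytosol, went the other way, with 3.19 to 6.63 CPM in Bach2KO and 2.07 to 3.62 CPM in Bach2WT (log2 fold change 0.90 ± 0.25). Acadm, of mitochondrial oxidation, was at 3.19 ± 1.33 CPM in Bach2KO and 1.67 ± 0.383 CPM in Bach2WT (SD, n = 4 each) (log2 fold change 0.93 ± 0.30). Oxct1, which uses ketone bodies, was at 2.12 to 3.18 CPM in Bach2KO and 3.26 to 5.04 CPM in Bach2WT, without overlap (log2 fold change -0.59 ± 0.21). The adjusted p of these 4 genes lay between 0.513 and 0.593.

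**Figure D4:**
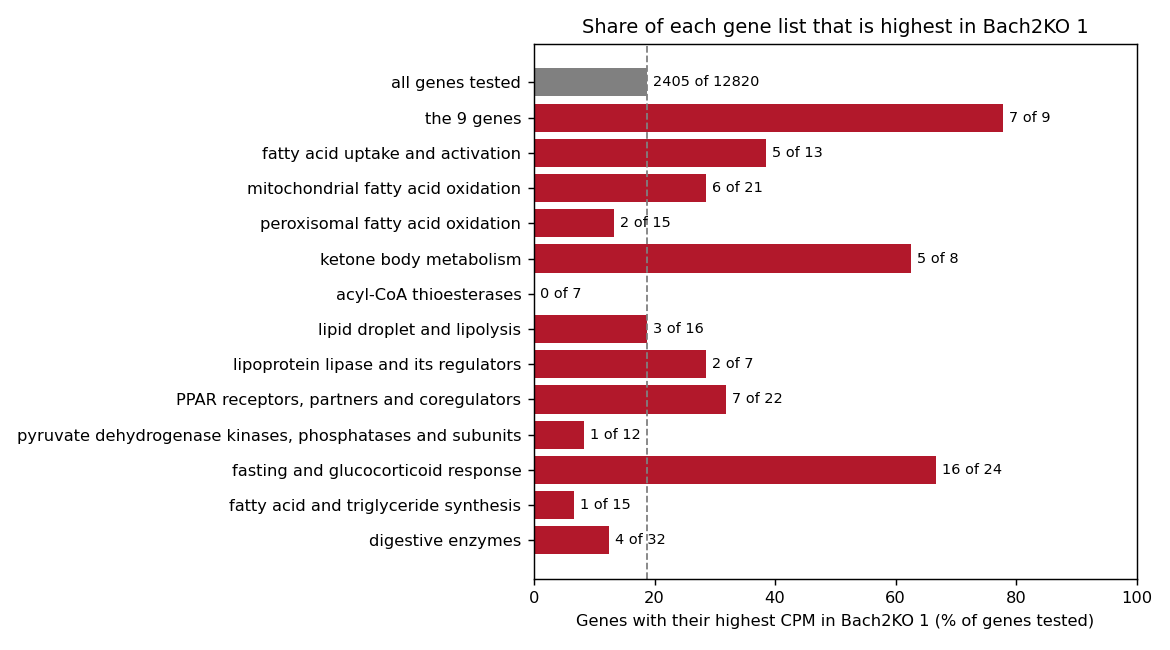
Share of the tested genes of each list whose highest CPM was in Bach2KO 1, as bars in percent from 0, with the number of genes beside each bar. The grey bar and the dashed line mark all 12820 genes tested (18.8%), and the longest bars are the 9 genes (7 of 9), the fasting and glucocorticoid list (16 of 24) and the ketone body list (5 of 8).

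Between the sexes, 0 of the 9 genes passed an adjusted p of 0.05 in edgeR, where 0.0312% of all genes did. Those were 4 genes, among them Xist, Ddx3y and Eif2s3y on the sex chromosomes. At an unadjusted p under 0.05, 3 of 9 (Cpt1a, Angptl4 and Ppargc1a) were higher in females, against 3.36% of all genes tested. Cpt1a was the 1 gene of the 9 whose values did not overlap between the sexes, a pattern seen in 1.97% of all genes with females higher. The fold change was above 0 for 8 of the 9, all but Ppara, with a median of 1.66 on the log2 scale against 0.03 over all genes. Without Bach2KO 1 it was above 0 for 6 of 8, with a median of 1.01 against 0.02 over all genes, and 2 of 8 (Cpt1a and Plin2) had an unadjusted p under 0.05, against 2.11% of all genes. For Acot1 it was 0.90 ± 1.11, and -0.22 ± 1.16 without Bach2KO 1. The difference was 2.51 ± 1.13 for Ppargc1a and 2.52 ± 1.18 for Plin5 (adjusted p = 0.890 for both in edgeR), each from few counts.

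**Figure D5:**
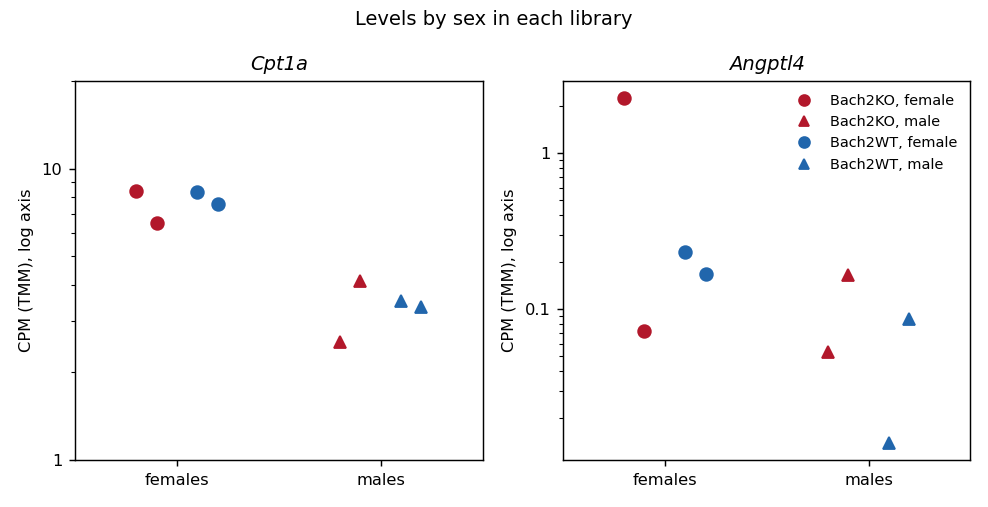
Levels of Cpt1a and Angptl4 in females and males, in CPM scaled with TMM factors on log axes, with 1 point per library coloured by genotype. The 4 females of Cpt1a lie between 6.52 and 8.38 CPM and the males between 2.54 and 4.10 CPM, while the sexes overlap for Angptl4, whose males lie between 0.0139 and 0.166 CPM and whose lowest female is at 0.0724 CPM.

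The difference between genotypes in females less that in males gave 0 genes at an adjusted p under 0.05 in edgeR, or 0% of all genes tested, and 0 of the 9. At an unadjusted p under 0.05, 1 of the 9 was counted, which was Pdk4, beside 6.14% of all genes. Its adjusted p was 0.794 in edgeR's quasi-likelihood test. Its highest library was 1 of the 2 Bach2KO females, without which the gene was not fitted. Pdk4 passed the threshold in edgeR when genes with low counts were kept (adjusted p = 1.22e-18), a setting that called more genes in all, as given with the alternatives below. In that fit too, 1512 counts of Pdk4 came from Bach2KO 1 and 0 to 16 from each other library.

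Fat cells carry many of these genes, and their markers differed between the libraries. All 12 of 12 adipocyte markers were in the table, and they summed to 28.1, 11.6, 14.1 and 12.9 CPM in Bach2KO 1 to 4 and 39.9, 33.0, 16.4 and 12.4 CPM in Bach2WT 1 to 4, led by Lpl, Cfd and Fabp4, of which Lpl is also made outside fat. Adipoq, which defines fat cells, had 48, 0, 0 and 2 counts in Bach2KO and 215, 259, 0 and 0 counts in Bach2WT. The sums of Bach2WT 1 and 2 were above that of Bach2KO 1, and Pdk4 had 0 counts in both of these Bach2WT libraries. By sex the sums were 11.6 to 39.9 CPM in females and 12.4 to 16.4 CPM in males. For females against males, all 9 tested markers had a fold change above 0. In edgeR 6 of them had an unadjusted p under 0.05, while 3.36% of all genes tested were higher in females at that level. Without Bach2KO 1 the fold change was above 0 for 6 of 8 markers. Of these 8, 2 were higher at an unadjusted p under 0.05 in edgeR, against 2.11% of all genes. Bach2KO 2, whose Cpt1a was at 6.52 CPM, had the lowest sum of the 8, with Adipoq, Plin1, Cidec and Cfd at 0 counts. Over all libraries, Pearson's r with the log2 marker sum ranged from -0.232 (Acot1) to 0.729 (Cpt1a, 0.689 without Bach2KO 1). With each genotype centred on its own mean it ranged from -0.152 (Ppara) to 0.766 (Cpt1a), with 0.765 for Angptl4 and 0.716 for Plin5. For Cpt1a, Angptl4 and Plin5 the centred exact permutation p was 0.0229 to 0.0452 unadjusted and 0.319 adjusted. Beyond these values, the part of fat cells in the sex differences and in the values of Bach2KO 1 was not tested.

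Markers of other tissues and cell types were summed in the same way. Of 10 markers of skeletal muscle 9 were in the table, and they summed to 0.145 to 1.00 CPM in Bach2KO and 0.752 to 1.19 CPM in Bach2WT, with Acta1 at 0 counts in all but 1 library. The 4 of 6 brown fat markers in the table summed to at most 0.290 CPM. The 7 of 8 hepatocyte markers summed to 5.98 to 24.2 CPM in Bach2KO and 11.5 to 24.2 CPM in Bach2WT, led by Ttr, and to 19.3 CPM in Bach2KO 1. Islet cell markers were highest in Bach2KO 3 (2043 CPM) and Bach2WT 4 (2332 CPM), against 185 to 657 CPM elsewhere. The same libraries held the highest hepatocyte marker sum of their genotype (24.2 CPM in each). The sum of B and plasma cell markers, led by Sdc1, was highest in Bach2KO 1 (16.3 CPM, against 3.66 to 9.93 CPM). Of these markers 4 were tested, and 1 was highest in Bach2KO 1 and 2 in Bach2WT 1. The sum of T cell markers was also highest in Bach2KO 1 (2.84 CPM, against 0.187 to 2.15 CPM), which held the highest value of 3 of the 6 tested. Macrophage markers summed to 12.2 CPM in Bach2KO 1, the lowest of the Bach2KO libraries. Their sums reached 19.9 CPM in Bach2KO and were 7.16 to 14.5 CPM in Bach2WT. The part of these cell types in the values of Bach2KO 1 was not tested.

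The 9 genes were compared with each other and with the summed adipocyte markers over the 8 mice, in 45 pairs of log2 CPM values. None passed an adjusted p of 0.05 in exact permutation tests (two-sided, Benjamini-Hochberg over 45), with 4 at an unadjusted p under 0.05. Pearson's r was above 0 for 36 pairs, and for 28 without Bach2KO 1. Cpt1a and Ppargc1a were closest (r = 0.892, exact p = 0.00293, adjusted p = 0.0737, and Spearman's rho = 0.922, exact p = 0.00268, adjusted p = 0.121). Without the 2 mice farthest from the median of Cpt1a, r was 0.797. With each genotype centred on its own mean this was the 1 pair whose r passed (r = 0.939, exact permutation, adjusted p = 0.00446), while its rho did not (rho = 0.952, exact permutation, adjusted p = 0.0513). Values were not centred on sex, and females had the higher mean of both genes (7.71 against 3.38 CPM for Cpt1a, 0.218 against 0.0406 CPM for Ppargc1a). The part of sex in this pair was not tested, and Ppargc1a had 0 counts in 2 libraries. Pdk4 and Acot1 followed (r = 0.863, exact p = 0.00327, adjusted p = 0.0737, and rho = 0.854, exact p = 0.0131, adjusted p = 0.231), with r = 0.746 without the 2 farthest mice and 0.790 without Bach2KO 1. Pdk4 and Angptl4, both highest in Bach2KO 1, had r = 0.738 with it and 0.000154 without it.

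Among all genes tested, the pattern most like each of the 9 over the 8 libraries was found by Pearson's r of log2 CPM, as a description. For Cpt1a it was that of Sh3d19 (r = 0.988) and Pear1 (0.986), and for Pdk4 that of Insr (0.980) and Dyrk1a (0.954). Angptl4 was most like Igkv10-96 (0.956) and Rnps1 (0.955), Acot1 most like Dtx4 (0.986) and 9930021J03Rik (0.968), and Acot2 most like Ube2g1 (0.995) and Bnip3l (0.969). Plin2 was most like Nifk (0.957) and Gm11221 (0.922), and Plin5 most like Tnks (0.968) and Sema4b (0.959). Ppara was most like Gm49338 (0.974) and Trappc8 (0.972), and Ppargc1a most like Dync1li1 (0.978) and Rbm17 (0.972). Insr, the insulin receptor gene, had r = 0.916 with Pdk4 over the 7 libraries without Bach2KO 1. Pdk4 had only 0 to 16 counts in these, with 3 libraries at 0. Insr was picked for its r over the same libraries, so this value is no separate support for a relation.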

How the data were processed

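Polyadenylated RNA of 8 pancreases, 4 per genotype, was analysed from 1 table. It holds the authors' counts per gene and library, deposited as whole numbers, 72299745 to 172029360 per library. The deposited FPKM values and the normalized signal, in which each library's counts are divided by 1 size factor, were also made by the authors. The submitters' processing notes list fastp, HISAT2 2.2.1, featureCounts 2.0.6 and the build mm39, without role or order. Their strand setting and statistical design are not given in the sources used here. Of counts from 21 to 199, 54.5% to 60.1% were even, so both mates of a read pair may have been counted. The authors' columns of group means, fold changes and p-values were not used. No row lacked a gene name (0 rows), and 0 columns of values lacked a sample.

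Counts were tested with edgeR 4.0.16 in R 4.3.3 (filterByExpr, TMM factors, quasi-likelihood F test, Benjamini-Hochberg over 12820 genes, threshold 0.05), with Bach2KO against Bach2WT as the main contrast, sex with genotype as covariate, and their interaction. CPM were TMM-scaled, with a prior count of 2 for log2 values. Levels between genes used FPKM. Intervals were Wilson at 95%, and the limit for 0 was 3 counts; both cover counting error only. DESeq2 1.42.0, limma 3.58.1 on log2(FPKM + 1), other filters, covariates and left-out mice were alternatives. Correlations used exact permutation with scipy 1.17.1, and each step across genes was tested on simulated data. The p-values of the fits set a difference against a modelled spread between these mice. Those of the correlations come from permuted pairings of the mice. Genes were chosen by symbol, and the members and lists were chosen with earlier results of these data known. Of each list the 2 genes with the smallest p-values could be named, of each marker list the 3 highest, and for each of the 9 genes the 2 most alike. Promoter sequences are from RefSeq (GRCm38.p6), while gene coordinates are those of the table. One result of the list comparisons is not reported here.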

Additional observations from a re-analysis of the deposited data

Results flagged for a closer look

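In 4 of 18 groups of 4 libraries that were looked at, the highest library lay far from the other 3 by Dixon's ratio, which chance does in about 1 in 20 groups of normally distributed values. That rate does not hold for low counts with libraries at 0, as for Pdk4 and Plin5 in Bach2WT. Pdk4 was at 9.34 CPM in Bach2KO 1 and at 0.0264 to 0.145 CPM in the other Bach2KO libraries. Angptl4 was at 2.25 CPM in Bach2KO 1 and at 0.0528 to 0.166 CPM in the others. In Bach2WT, Pdk4 was at 0.230 CPM in Bach2WT 4 and at 0 in the rest, a value of 16 counts. Plin5 was at 0.152 CPM in Bach2WT 2, from 20 counts, and at 0 to 0.0222 CPM in the others.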

How the results depend on the processing

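Between genotypes edgeR called 1 gene of 12820, which was none of the 9. DESeq2 called 80 genes and edgeR without a filter 73, while 0 were called with at least 10 counts in every mouse, with sex as covariate, with counts divided by 2, with limma on log2(FPKM + 1), without Bach2KO 1 and 3, and in each fit without 1 mouse (0 to 0). An unadjusted p under 0.05 took in 957 genes and values without overlap 575. Between sexes 4 genes became 19 in DESeq2, 152 without a filter, 678 by unadjusted p, 377 without overlap, and 2 to 9 without 1 mouse. For the interaction 0 became 18 in DESeq2, 92 without a filter, 787 by unadjusted p, and 0 to 6 without 1 mouse. Centring each genotype made 1 pair of genes pass where 0 did. Of the 9 positions in the order of FPKM, 3 to 9 were kept without 1 mouse, and 3 without Bach2KO 1.

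Some fold changes turned sign. Between genotypes, leaving out 1 mouse gave log2 ranges of -0.38 to 0.16 for Cpt1a, -0.33 to 2.84 for Angptl4, -0.53 to 0.17 for Plin2 and -0.52 to 0.45 for Ppara. Without Bach2KO 1 and 3, Angptl4 was at -0.058, Plin2 at 0.40 and Ppara at 0.39. Plin2 was at 0.0023 with at least 10 counts in every mouse, and Ppara at 0.070 with sex as covariate. Between sexes Pdk4 was at -0.16 in DESeq2, and leaving out 1 mouse gave -0.22 to 2.62 for Acot1 and -1.28 to 0.33 for Ppara. The cause was not tested. Without turning sign, leaving out 1 mouse gave 5.21 to 11.25 for Pdk4, 1.78 to 4.78 for Plin5, 2.38 to 4.99 for Acot1, 0.39 to 2.92 for Acot2 and 0.26 to 1.83 for Ppargc1a between genotypes, and 0.85 to 6.22 for Pdk4, 1.08 to 3.45 for Angptl4, 0.23 to 0.80 for Plin2, 1.76 to 3.44 for Plin5, 0.71 to 2.15 for Acot2 and 2.13 to 4.09 for Ppargc1a between sexes. Pdk4 could not be fitted without Bach2KO 1. With low counts kept, Pdk4 (adjusted p = 0.000389) and Angptl4 (adjusted p = 0.00683) passed between sexes in edgeR.

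The mouse numbers do not pair the samples. Deviations of mice with the same number correlated at 0.21, -0.03, -0.04 and -0.05, and only number 1 correlated best with its own. The replicate block called 0 genes between genotypes, and Ppara was at 0.34 with it.

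Low counts limit Plin5 (0 to 65 per library), Ppargc1a (0 to 55) and Ppara (0 to 85). Outside Bach2KO 1 they also limit Pdk4 (0 to 16), Angptl4 (2 to 32), Acot1 (0 to 49) and Acot2 (1 to 34). The fits without Bach2KO 1 and 3, the sex and interaction counts by other call rules, and correlations, lists and sex counts without Bach2KO 1 were chosen after seeing the data.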

Other observations

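Beside Pdk4, Angptl4 and Acot1, the 27 genes at least 4 times higher in Bach2KO 1 than in any other library held Plin4, Glul, which makes glutamine, Por, the electron donor of cytochrome P450 enzymes, and Nr1h4, the bile acid receptor gene. Glul was at 67.4 CPM there and at most 9.36 CPM elsewhere. They also held 3 immunoglobulin kappa variable genes and the macrophage receptor gene Marco. The 8 such genes of Bach2WT 1 held Dbp, Ciart and Bhlhe41, which belong to the circadian clock or its output, and Per1 was at 8.33 CPM in that library, second to 14.1 CPM in Bach2KO 1, against 0.487 to 4.08 CPM in the others. The 7 of Bach2KO 3 held the immediate early gene Egr1 and the stress gene Gadd45g. These genes were named after their values were seen, and no test was made of them.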
